A study of Homo sapiens with 6 samples.

Results

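The genes examined here are regulators and markers of the epithelial-mesenchymal transition (EMT), namely the transcription factors SNAI1, SNAI2, TWIST1, TWIST2, ZEB1 and ZEB2, the cadherins CDH1, CDH2 and CDH11, and VIM. The 10 genes were chosen by name, with earlier results of these data known. All 10 were found among the 26364 gene symbols of the deposited values. Of them, 9 passed the filter on low expression (a mean of at least 0.5 FPKM over the libraries). FPKM, fragments scaled to transcript length and library size, is an expression level per gene length, so levels of different genes can be set side by side. The cells were A673/TR/shEF, a derivative of the Ewing sarcoma line A673 that carries the EWSR1::FLI1 fusion, a tetracycline repressor and an shRNA against the fusion mRNA that doxycycline induces. RNAseq was performed on 3 untreated samples (EWSR1::FLI1high, replicates 1 to 3) and on 3 samples kept with 1 µg/mL doxycycline for 72 h (EWSR1::FLI1low, replicates 1 to 3), and all cells grew in medium with blasticidin and zeocin. No doxycycline-treated cells without the shRNA were analysed here, so effects of the drug and of the knockdown cannot be told apart. The labels call the replicates independent clones in one place and numbered experiments in another, so p-values measure the spread between these samples, whichever of these they are.

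In EMT, cells loosen their epithelial junctions and take on a motile, mesenchymal state. Snail, Twist and ZEB factors are the best known drivers of this change. Snail and ZEB proteins are zinc finger repressors that bind E-box elements and silence CDH1, which encodes E-cadherin, the adhesion molecule of epithelial junctions. Twist proteins are basic helix-loop-helix factors of mesoderm and neural crest. Loss of E-cadherin is often accompanied by a gain of N-cadherin (CDH2) or cadherin-11 (CDH11), known as the cadherin switch, and by vimentin (VIM), the intermediate filament protein of mesenchymal cells. Ewing sarcoma is a tumour of bone and soft tissue that does not arise from an epithelium.

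Between 6980361 and 16658933 reads per library lay on genes. FLI1, which supplies the 3′ part of the targeted fusion mRNA, was expressed at 12.7 ± 1.43 FPKM (SD, n = 3) in EWSR1::FLI1high and 3.63 ± 0.696 FPKM (SD, n = 3) in EWSR1::FLI1low cells (log2 fold change -1.57, adjusted p = 0.000676, limma). Of 7 Ewing sarcoma markers, a list that holds FLI1 itself, all 7 were tested. Of these, 5 fell upon knockdown, FLI1 among them, beside 3.37% of all genes tested. The summed expression of the 7 was 526 to 537 FPKM without and 159 to 184 FPKM with doxycycline. Of 4 haematopoietic markers none passed the filter, and their summed level was 0.583 to 1.17 FPKM without and 0.737 to 1.99 FPKM with doxycycline. Of 4 endothelial markers 2 were tested and 1, KDR, rose, and their summed level was 0.836 to 1.33 FPKM without and 7.16 to 9.53 FPKM with doxycycline. None of the 8 markers of these other cell types was at 0 in every library, and their part in the results below was not tested. In bulk RNA, more cells of a type and more RNA per cell cannot be told apart. EWSR1::FLI1low replicate 1 stood apart from the other samples, with an array weight (limma's estimate of how closely a library follows the fit) of 0.172 against 0.463 to 2.79 for the other libraries.

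Expression as log2(FPKM + 1) was compared between the groups with limma, with p-values adjusted (Benjamini-Hochberg) over the 15504 genes tested, and a gene was called changed at an adjusted p under 0.01. Fold changes below are on this log2(FPKM + 1) scale, EWSR1::FLI1low against EWSR1::FLI1high, which understates changes of low genes. Of the 9 EMT genes tested, 3 rose upon EWSR1::FLI1 knockdown (SNAI2, CDH2 and VIM), 0 fell and 6 were not called. In the background of all genes tested, 7.88% were called in either direction, 4.51% as higher and 3.37% as lower. The balance between directions rested on single libraries, since 415 genes were called higher and 689 lower without EWSR1::FLI1low replicate 3, against 1527 higher and 807 lower without EWSR1::FLI1low replicate 1. The median log2 fold change was 0.44 for the 9 genes and -0.05 for all genes tested. With the limit of 2.5 on the size of the log2 fold change added, 1 of the 9 genes, CDH2, was past both limits, beside 1.02% of all genes tested. SNAI2 was also past both limits with a pseudocount of 0.1 (2.53), with limma-voom on recovered reads (2.56) and without EWSR1::FLI1low replicate 2 (2.54), where CDH2 was not (2.45). Both groups were fully separated for 7 of the 10 genes. In 6 of these, each EWSR1::FLI1low library was above each EWSR1::FLI1high library, an order found in 17.5% of all genes tested, and in 1, ZEB2, each was below, as in 23.6% of all genes tested.

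**Figure D1:**
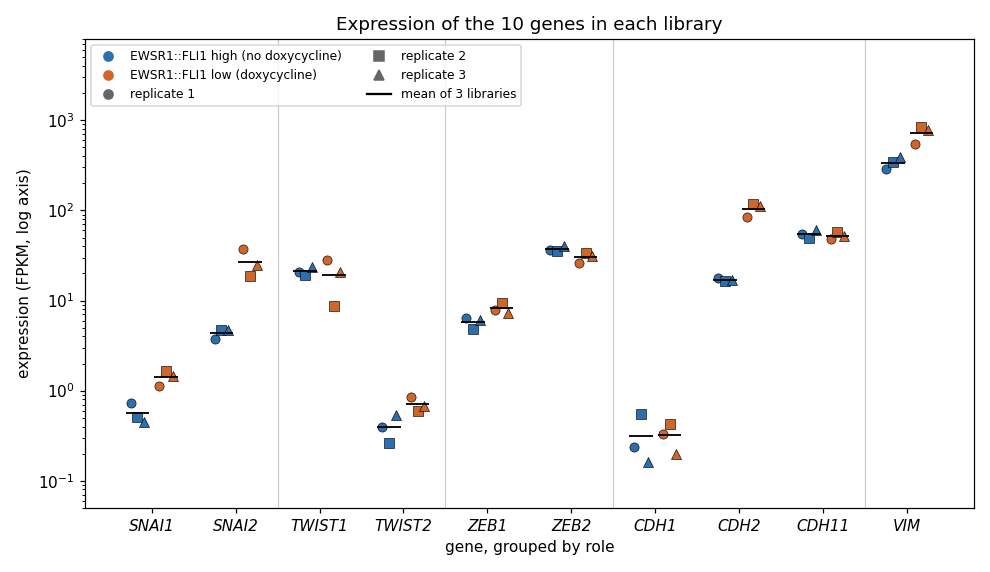
Expression in FPKM (vertical log axis) of the 10 genes in the 3 EWSR1::FLI1high (blue) and 3 EWSR1::FLI1low (orange) libraries, with a symbol for each replicate and a bar at the mean of 3. SNAI2, CDH2 and VIM sit higher with doxycycline in each library, CDH11 and ZEB2 lie between 26.0 and 59.9 FPKM, and CDH1 stays below 1 FPKM in all libraries.

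**Figure D2:**
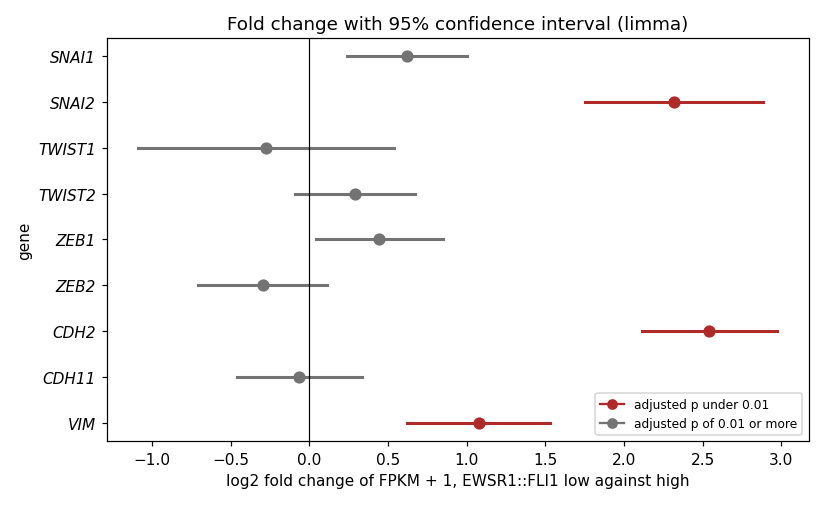
Log2 fold change (points) with its 95% confidence interval (lines) from limma for the 9 genes tested, red where the adjusted p is under 0.01. Only the intervals of SNAI2 (from 1.75 to 2.88), CDH2 (from 2.11 to 2.97) and VIM (from 0.62 to 1.53) belong to genes called changed, and CDH1 is missing because it did not pass the filter.

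Among the Snail factors, SNAI2 rose and SNAI1 was not called. SNAI2 (ENSG00000019549, chromosome 8, 49830157 to 49834299, minus strand, GRCh37) encodes Slug, a repressor active in neural crest and in mesenchymal cells. Its levels were 3.75, 4.70 and 4.71 FPKM in EWSR1::FLI1high replicates 1, 2 and 3. The EWSR1::FLI1low replicates 1, 2 and 3 had 37, 18.6 and 24.7 FPKM. The groups did not overlap, and the highest value was that of EWSR1::FLI1low replicate 1. The means were 4.39 ± 0.552 and 26.8 ± 9.39 FPKM (SD, n = 3 in each group), a 6.10-fold difference. The change on the log2 scale was 2.32 with SE 0.25 and adjusted p = 0.000475 by limma, and 169 of the 15504 genes tested increased more. It was 2.06 without EWSR1::FLI1low replicate 1, and its adjusted p (limma) was at most 0.0042 whichever of the 6 libraries was dropped. By mean FPKM, SNAI2 was above 43.7% of the genes tested without doxycycline and above 80.7% with it. The values rested on 77 to 83 reads per library without doxycycline and on 321 to 813 with it.

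SNAI1 (ENSG00000124216, chromosome 20, 48599517 to 48605423, plus strand, GRCh37), the founding Snail gene, was far lower. Its expression was 0.726, 0.515 and 0.454 FPKM in EWSR1::FLI1high replicates 1, 2 and 3, against 1.12, 1.64 and 1.47 FPKM in EWSR1::FLI1low replicates 1, 2 and 3. Each treated library was above each untreated library, with means of 0.565 ± 0.143 and 1.41 ± 0.266 FPKM (SD, n = 3). The log2 fold change of 0.62 (95% confidence interval 0.24 to 1.00) was not called, with an adjusted p of 0.0335 (limma). Only 6 to 13 reads per library lay on SNAI1 without doxycycline and 17 to 39 with it, which limits the precision of this gene. Summed over both genes, Snail expression was 4.95 ± 0.413 FPKM in EWSR1::FLI1high and 28.2 ± 9.12 FPKM in EWSR1::FLI1low cells (SD, n = 3). SNAI2 made up 88.4 ± 4.02% of this sum without and 94.4 ± 2.60% with doxycycline. The log2 ratio of SNAI2 to SNAI1 (each as FPKM + 1) was 1.46, 1.91 and 1.97 without and 4.16, 2.89 and 3.38 with doxycycline. As SNAI1 was near 1 FPKM or below, the added 1 widens the gap between groups, and the plain FPKM ratios of 5.16, 9.13 and 10.4 without and 33.0, 11.3 and 16.9 with doxycycline nearly touched. The log2 ratios did not overlap between groups (difference 1.70, exact permutation test, two-sided, p = 0.1, the smallest p that 3 against 3 allow, and 0.125 after adjustment over the 5 ratios examined).

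The Twist factors were not called in either direction. TWIST1 (ENSG00000122691, chromosome 7, 19060614 to 19157259, minus strand, GRCh37) was expressed at 20.8, 19.3 and 23.6 FPKM in EWSR1::FLI1high replicates 1, 2 and 3. In EWSR1::FLI1low replicates 1, 2 and 3 it was at 28.3, 8.78 and 20.5 FPKM. The treated libraries held both the highest and the lowest value of TWIST1, so the groups overlapped. The log2 fold change was -0.27, with a 95% confidence interval from -1.09 to 0.54 that leaves room for a change in either direction (adjusted p = 0.637, limma). Its sign rested on 1 library, since it was 0.18 without EWSR1::FLI1low replicate 2, and with array weights it was -0.91 (adjusted p = 0.0118, limma). In this gene the spread in EWSR1::FLI1low cells (SD 9.82 FPKM, n = 3) exceeded that in EWSR1::FLI1high cells (SD 2.21 FPKM, n = 3). TWIST2 (ENSG00000233608, chromosome 2, 239756673 to 239832230, plus strand) was near the filter, at 0.396, 0.261 and 0.537 FPKM without and 0.857, 0.591 and 0.667 FPKM with doxycycline. The groups were separated by a narrow gap, the log2 fold change was 0.29 (95% confidence interval -0.09 to 0.67, adjusted p = 0.264, limma), and 3 to 15 reads per library lay on the gene. TWIST1 made up 98.2 ± 0.446% of the summed Twist FPKM in EWSR1::FLI1high and 95.9 ± 1.89% in EWSR1::FLI1low cells (SD, n = 3). The log2 ratio of TWIST2 to TWIST1 overlapped between the groups (difference 0.56, exact permutation test, two-sided, p = 0.2, adjusted p = 0.2). The proteins of these paralogs share a nearly identical DNA-binding region, and how reads that match both genes were assigned is not given in the sources used here.

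The ZEB factors were both expressed, with ZEB2 above ZEB1 in all 6 libraries. ZEB2 (ENSG00000169554, chromosome 2, 145121931 to 145278624, minus strand, GRCh37), a repressor with roles in neural crest, was at 36.1, 35.5 and 40.3 FPKM in EWSR1::FLI1high replicates 1, 2 and 3. It was at 26.0, 33.3 and 31.5 FPKM in EWSR1::FLI1low replicates 1, 2 and 3. Each treated library was below each untreated library, yet the log2 fold change of -0.30 (95% confidence interval -0.71 to 0.11) was not called (adjusted p = 0.283, limma). ZEB1 (ENSG00000148516, chromosome 10, 31607424 to 31818742, plus strand), the best studied repressor of epithelial genes in carcinoma cells, was at 6.34, 4.87 and 6.06 FPKM without and 7.92, 9.47 and 7.21 FPKM with doxycycline. Here each treated library was above each untreated one, and the log2 fold change of 0.44 (95% confidence interval 0.04 to 0.85) was not called either (adjusted p = 0.113, limma). The 2 genes lay on opposite sides of 0. The log2 ratio of ZEB2 to ZEB1 was 2.34, 2.64 and 2.55 in EWSR1::FLI1high and 1.6, 1.71 and 1.98 in EWSR1::FLI1low replicates. These ratios did not overlap (difference -0.74, exact permutation test, two-sided, p = 0.1, adjusted p = 0.125). ZEB1 made up 13.4 ± 1.46% of the summed ZEB FPKM without and 21.4 ± 2.44% with doxycycline (SD, n = 3), while the sum itself was 43.0 ± 3.06 and 38.5 ± 4.39 FPKM. The hairpin genes of the miR-200 family (MIR200A, MIR200B, MIR200C, MIR141 and MIR429, named here after their values were seen), whose mature products repress ZEB mRNAs, had 0 reads in each library. These libraries were not made for small RNAs, so mature miRNAs were not measured.

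**Figure D3:**
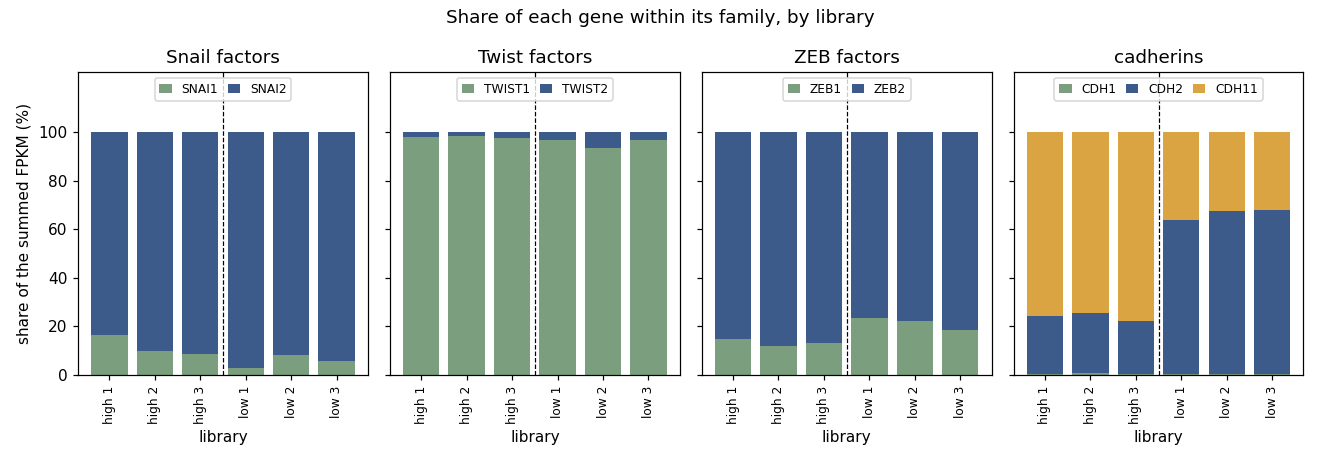
Stacked bars give the share (%) of each gene in the summed FPKM of its family, for the 6 libraries (high, without doxycycline; low, with doxycycline). The CDH2 part of the cadherin bars lies between 22.1% and 24.6% in the high libraries and between 63.8% and 68.0% in the low libraries, while SNAI2, TWIST1 and ZEB2 stay the main genes of their families in all 6.

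Among the cadherins, CDH2 rose, CDH11 was not called and CDH1 was too low to be tested. CDH2 (ENSG00000170558, chromosome 18, 25512843 to 25757910, minus strand, GRCh37), which encodes N-cadherin of neural and mesenchymal cells, was at 17.6, 16.3 and 17.1 FPKM in EWSR1::FLI1high replicates 1, 2 and 3. With doxycycline it was at 85.3, 118 and 112 FPKM in replicates 1, 2 and 3. The untreated libraries were close together, all treated libraries were well above them, and EWSR1::FLI1low replicate 1 was the lowest of the treated libraries. The means were 17 ± 0.636 and 105 ± 17.2 FPKM (SD, n = 3), a 6.16-fold difference. The change on the log2 scale was 2.54 with SE 0.19 and adjusted p = 9.53e-05 by limma, and 134 of the genes tested increased more. Whichever of the 6 libraries was dropped, it stayed between 2.45 and 2.68, with an adjusted p (limma) of at most 0.00164. The fold change lay near the limit of 2.5 and was under it without EWSR1::FLI1low replicate 2 (2.45) and without EWSR1::FLI1low replicate 3 (2.49).

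CDH11 (ENSG00000140937, chromosome 16, 64977656 to 65160015, minus strand, GRCh37), the cadherin of osteoblasts and other mesenchymal cells, was the most abundant of the 3 cadherins before knockdown. It was at 55.3, 49.5 and 59.9 FPKM without and at 48.0, 57.0 and 52.2 FPKM with doxycycline, and the groups overlapped. The log2 fold change was -0.06 (95% confidence interval -0.46 to 0.33, adjusted p = 0.837, limma), a sign that turned to 0.02 with median-ratio scaling and to 0.14 with quantile normalization. The interval excludes an increase of the size seen for CDH2. In EWSR1::FLI1high cells CDH11 was above CDH2 in each library, and in EWSR1::FLI1low cells CDH2 was above CDH11 in each library. The FPKM ratio of CDH11 to CDH2 was 3.14, 3.03 and 3.51 without and 0.563, 0.485 and 0.468 with doxycycline. On the log2(FPKM + 1) scale this ratio differed by -2.61 (exact permutation test, two-sided, p = 0.1, adjusted p = 0.125), with no overlap of the groups. The summed FPKM of the 3 cadherins was 72.2 ± 5.43 in EWSR1::FLI1high and 158 ± 21.4 in EWSR1::FLI1low cells (SD, n = 3).

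CDH1 (ENSG00000039068, chromosome 16, 68771195 to 68869440, plus strand, GRCh37) was near the lower end of detection in both groups. It was at 0.237, 0.547 and 0.161 FPKM in EWSR1::FLI1high replicates 1, 2 and 3, against 0.327, 0.430 and 0.20 FPKM in EWSR1::FLI1low replicates 1, 2 and 3. The groups overlapped, with means of 0.315 ± 0.205 and 0.319 ± 0.115 FPKM (SD, n = 3). These values came from 6 to 21 reads per library, and 3 reads, taken as the floor of detection, correspond to 0.04 to 0.0804 FPKM. CDH1 did not pass the filter. Without the filter its log2 fold change was 0.01 (95% confidence interval -0.31 to 0.33, adjusted p = 0.977 over 24488 genes, limma). E-cadherin mRNA was therefore low before the knockdown, and a change was not detectable at this depth. CDH1 made up 0.453 ± 0.327% of the summed cadherin FPKM without and 0.204 ± 0.0713% with doxycycline. The log2 ratio of CDH2 to CDH1 did not overlap between groups (difference 2.53, exact permutation test, two-sided, p = 0.1, adjusted p = 0.125). With CDH1 this low, that ratio largely restates the change of CDH2.

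VIM (ENSG00000026025, chromosome 10, 17270240 to 17279592, plus strand, GRCh37) was the most abundant of the 10 genes in all libraries. Its levels were 289, 340 and 389 FPKM in the untreated replicates 1, 2 and 3 and 545, 839 and 789 FPKM in the treated replicates 1, 2 and 3. The groups did not overlap, and EWSR1::FLI1low replicate 1 was again the lowest treated library. The means were 339 ± 50.3 and 725 ± 157 FPKM (SD, n = 3), a 2.14-fold difference or 1.08 on the log2 scale, with SE 0.20 and adjusted p = 0.00717 by limma. The call was close to the threshold. The adjusted p (limma) was 0.0289, 0.0377 and 0.022 without EWSR1::FLI1high replicates 1, 2 and 3, 0.0216 and 0.0278 without EWSR1::FLI1low replicates 2 and 3, and 0.000477 without EWSR1::FLI1low replicate 1, while the log2 fold change stayed between 0.96 and 1.27. It was 0.0332 without the filter on low values and 0.0102 when the limma fit used no mean-variance trend. VIM was already above 99.5% of the genes tested, by mean FPKM, before knockdown. VIM-AS1, a long noncoding RNA read from the opposite strand that overlaps VIM over 1778 bases, was at 1.95 ± 0.324 and 6.33 ± 2.43 FPKM (SD, n = 3) and was not called (log2 fold change 1.25, adjusted p = 0.0119, limma). Whether counting used the strand is not given in the sources used here, so reads of VIM and VIM-AS1 in the overlap may not be separable. None of the 4 transcripts tested among the antisense RNAs listed for ZEB1, ZEB2, VIM and SNAI3 was called.

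The bases upstream of CDH2 and VIM, the genes of the set that were called and for which sequence was at hand, are printed here with those of ZEB2, which was not called. ETS factors such as FLI1 recognise a GGAA core, and matches to it are marked here as letters only. RefSeq promoter windows (GRCh38.p14) matched 5 of the 10 genes, namely ZEB2, TWIST2, VIM, ZEB1 and CDH2, in 12 windows. Upstream sequences of SNAI1, SNAI2, TWIST1, CDH1 and CDH11 were not used here. Each sequence is the 250 bases before the annotated start (for CDH2 the outermost of its annotated starts), 5′ to 3′ on the gene's strand, and capitals mark each GGAA and its reverse complement TTCC. The windows lie at chr18:28177131-28177380 (minus strand, CDH2), chr10:17227991-17228240 (plus strand, VIM) and chr2:144520120-144520369 (minus strand, ZEB2).
CDH2: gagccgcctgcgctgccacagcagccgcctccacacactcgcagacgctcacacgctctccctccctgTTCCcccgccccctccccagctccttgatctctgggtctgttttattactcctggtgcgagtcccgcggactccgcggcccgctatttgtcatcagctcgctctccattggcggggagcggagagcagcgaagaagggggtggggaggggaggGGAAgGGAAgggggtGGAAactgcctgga
VIM: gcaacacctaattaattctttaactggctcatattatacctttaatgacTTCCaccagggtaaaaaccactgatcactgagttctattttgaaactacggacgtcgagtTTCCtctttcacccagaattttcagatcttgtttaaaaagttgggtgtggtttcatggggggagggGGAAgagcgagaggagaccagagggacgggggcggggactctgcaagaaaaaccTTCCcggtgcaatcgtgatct
ZEB2: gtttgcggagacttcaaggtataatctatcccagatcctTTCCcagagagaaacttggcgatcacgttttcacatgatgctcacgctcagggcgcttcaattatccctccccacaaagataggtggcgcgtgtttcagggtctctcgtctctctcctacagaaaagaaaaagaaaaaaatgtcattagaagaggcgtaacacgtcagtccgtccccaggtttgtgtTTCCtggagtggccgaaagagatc

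The CDH2 and VIM windows held 4 matches to GGAA or TTCC each and the ZEB2 window held 2. Matches to so short a motif are common, and 92.7% of all 35116 windows of this length held at least 1. The tandem GGAAGGAA (or TTCCTTCC), the unit of the GGAA repeats at which EWSR1::FLI1 is known to bind, was in none of these 3 windows, in 1 of the 7 windows of ZEB1 and in 3.06% of all windows. The E-box form CACCTG (or CAGGTG), the element that Snail and ZEB repressors bind, was in none of the windows of CDH2, VIM, ZEB2 and TWIST2, in 2 of the 7 windows of ZEB1, and in 17.5% of all windows. All motifs were searched on both strands, and overlapping matches were counted. These matches describe letters only, and binding was not measured here.

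Related genes were taken from 9 lists that hold other EMT regulators, partners of the Snail and ZEB proteins, other cadherins, catenins, epithelial and mesenchymal genes, other intermediate filament genes and antisense transcripts at the loci above. Of their 161 listed genes, 116 were tested, and 23 rose and 8 fell (median log2 fold change 0.30). Thus 26.7% were called, beside 7.88% of all genes tested. The lists were chosen with earlier results of these data known, so this share is not a test of them. The 31 calls were 20, 18 and 18 without EWSR1::FLI1high replicates 1, 2 and 3, and 48 without EWSR1::FLI1low replicate 1.

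Among other EMT-promoting transcription factors, 2 of 10 tested rose, 1 fell and 7 were not called (30% called, median log2 fold change 0.57). PRRX1, a homeobox factor of limb and craniofacial mesenchyme, rose from 0.739 ± 0.24 to 5.89 ± 1.79 FPKM (SD, n = 3, log2 fold change 1.96, adjusted p = 0.000639, limma). FOXC1, a forkhead factor of mesenchyme and neural crest, rose from 0.731 ± 0.0849 to 4.90 ± 1.68 FPKM (SD, n = 3, log2 fold change 1.73, adjusted p = 0.00105, limma). TCF3, which encodes the E proteins that pair with Twist factors on E-boxes, fell from 38.4 ± 5.59 to 18.4 ± 3.04 FPKM (SD, n = 3, log2 fold change -1.02, adjusted p = 0.00903, limma). The TCF3 call was lost when any of 5 libraries was dropped (each but EWSR1::FLI1low replicate 1), where the adjusted p (limma) reached 0.0574. Among regulators of the epithelial state, 1 of 7 tested rose, 0 fell and 6 were not called (14.3% called, median 0.38). KLF5, a zinc finger factor of epithelial progenitors and of smooth muscle, was the gene called, at 0.909 ± 0.197 and 8.86 ± 4.45 FPKM (SD, n = 3, log2 fold change 2.27, adjusted p = 0.00139, limma).

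Of 23 tested genes that encode corepressors or stability regulators of Snail and ZEB proteins, 1 rose, 1 fell and 21 were not called (median 0.00). The 8.7% called was near the 7.88% of all genes tested. LOXL2, a lysyl oxidase that crosslinks collagen and has been linked to Snail stability, was at 4.0, 3.69 and 6.34 FPKM without and 44.3, 105 and 59.8 FPKM with doxycycline. LOXL2 thus rose by 3.57 on the log2 scale, with SE 0.32 and adjusted p = 0.000212 by limma. RCOR1, the CoREST scaffold that joins the demethylase LSD1 to repressors, fell from 31.7 ± 3.5 to 9.72 ± 0.312 FPKM (SD, n = 3), and its change of -1.6 on the log2 scale had an adjusted p of 0.000467 (limma).

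Of 17 other classical and related cadherins, 8 were tested, 1 rose, 2 fell and 5 were not called (37.5% called, median 0.26). CDH13, which encodes T-cadherin, a cadherin with a lipid anchor and no cytoplasmic tail, was at 0.616, 1.10 and 1.52 FPKM in EWSR1::FLI1high and at 7.76, 52.8 and 45.7 FPKM in EWSR1::FLI1low replicates 1, 2 and 3. As for CDH2 and VIM, EWSR1::FLI1low replicate 1 was the lowest treated library. The log2 fold change of CDH13 was 3.78 with SE 0.60 and adjusted p = 0.00325 by limma and was 4.61 without that library. Without EWSR1::FLI1high replicate 1, 2 or 3 or EWSR1::FLI1low replicate 3 the call was lost, at an adjusted p (limma) of up to 0.0187. CDH8, a neural type II cadherin, went the other way, from 14.6, 14.9 and 16.5 FPKM without to 2.75, 1.35 and 2.57 FPKM with doxycycline (log2 fold change -2.37, adjusted p = 0.000211, limma). CDH12, also a neural type II cadherin, fell from 2.08 ± 0.316 to 0.455 ± 0.262 FPKM (SD, n = 3, log2 fold change -1.09, adjusted p = 0.00471, limma), and this call was lost when any library but EWSR1::FLI1low replicate 1 was dropped, with an adjusted p (limma) of up to 0.0291.

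Cadherins act through catenins, which tie them to actin. Of 11 tested catenins and cadherin-bound proteins, 1 rose, 0 fell and 10 were not called (median 0.18). The 9.09% called was near the 7.88% of all genes tested. VCL encodes vinculin, an actin linker of cell junctions and of focal adhesions, and rose from 71.1 ± 5.0 to 156 ± 24.6 FPKM (SD, n = 3, log2 fold change 1.11, adjusted p = 0.00403, limma). The VCL call was lost without EWSR1::FLI1high replicate 1, 2 or 3 or EWSR1::FLI1low replicate 3, with an adjusted p (limma) of up to 0.0326. The core catenins, named for their role after their values were seen, were not called. CTNNB1 (beta-catenin) was at 68.1 ± 1.5 and 79.8 ± 10.8 FPKM (SD, n = 3, log2 fold change 0.22, adjusted p = 0.423, limma). CTNNA1 (alpha-catenin) was at 111 ± 8.14 and 139 ± 29.1 FPKM (SD, n = 3, log2 fold change 0.30, adjusted p = 0.325, limma). CTNND1 (p120 catenin) was at 3.0 ± 0.503 and 3.01 ± 0.304 FPKM (SD, n = 3, log2 fold change 0.01, adjusted p = 0.977, limma).

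Of 41 listed epithelial junction and keratin genes, 26 had a mean below 1 FPKM in both groups, as CDH1 did. Of the 20 that were tested, 0 rose, 3 fell and 17 were not called (15% called), although the median log2 fold change of the 20 was 0.25. The genes called lower were PKP1, a desmosomal plakophilin (84.8 ± 14.5 to 21.2 ± 7.06 FPKM, log2 fold change -1.99, adjusted p = 0.00159, limma), PARD6B, a polarity protein (19.8 ± 2.19 to 5.26 ± 1.00 FPKM, log2 fold change -1.74, adjusted p = 0.000467, limma), and CDS1, an enzyme of phospholipid synthesis (2.77 ± 0.606 to 0.483 ± 0.0479 FPKM, log2 fold change -1.33, adjusted p = 0.00112, limma). The call of PKP1 was lost without EWSR1::FLI1high replicate 2 or 3, with an adjusted p (limma) of up to 0.0126. KRT18, a simple-epithelium keratin named after its values were seen, was at 59.7 ± 15.1 and 78.2 ± 35.3 FPKM (SD, n = 3) and was not called (adjusted p = 0.618, limma). PKP1, PARD6B and KRT18 were thus well expressed in untreated cells in which most listed epithelial genes were below 1 FPKM. So were CLDN1 (75.2 ± 15.6 FPKM) and TJP1 (24.4 ± 1.75 FPKM, SD, n = 3), which were not called. With doxycycline CLDN1 was at 27.7 ± 23.1 FPKM (SD, n = 3, log2 fold change -1.71, adjusted p = 0.0427, limma). Each treated library was below each untreated library for CLDN1. TJP1 was at 31.9 ± 3.56 FPKM with doxycycline (SD, n = 3, log2 fold change 0.37, adjusted p = 0.181, limma). These genes were also named after their values were seen.

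Beside VIM, 11 other intermediate filament and lamin genes were tested, of which 2 rose, 1 fell and 8 were not called (27.3% called, median 0.82). NES, which encodes nestin of neural progenitors, rose from 12.4 ± 2.98 to 42.9 ± 13.9 FPKM (SD, n = 3, log2 fold change 1.70, adjusted p = 0.00336, limma). SYNM, which encodes synemin, a filament protein that assembles with vimentin, rose from 1.56 ± 0.171 to 8.82 ± 4.63 FPKM (SD, n = 3, log2 fold change 1.83, adjusted p = 0.00413, limma). LMNB1, a nuclear lamin of proliferating cells, fell from 117 ± 9.11 to 52.0 ± 16.2 FPKM (SD, n = 3, log2 fold change -1.20, adjusted p = 0.00825, limma). Each of these calls depended on single libraries and was lost without them (NES without EWSR1::FLI1high replicate 1, 2 or 3 or EWSR1::FLI1low replicate 3, SYNM without EWSR1::FLI1high replicate 1, 2 or 3, LMNB1 without EWSR1::FLI1high replicate 1, 2 or 3 or EWSR1::FLI1low replicate 2), at an adjusted p (limma) of up to 0.0182, 0.0223 and 0.0499, respectively.

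The mesenchymal list held 15 of the 31 calls. All 22 genes were tested, 15 rose, 0 fell and 7 were not called (68.2% called, median log2 fold change 1.73). POSTN, which encodes the matrix protein periostin, was at 2.17, 4.97 and 3.90 FPKM without and at 80.2, 261 and 285 FPKM with doxycycline (log2 fold change 5.33, adjusted p = 0.000207, limma). TAGLN, an actin-binding protein of smooth muscle, rose from 9.80 ± 6.45 to 92.2 ± 28.8 FPKM (SD, n = 3, log2 fold change 3.21, adjusted p = 0.00086, limma).

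**Figure D4:**
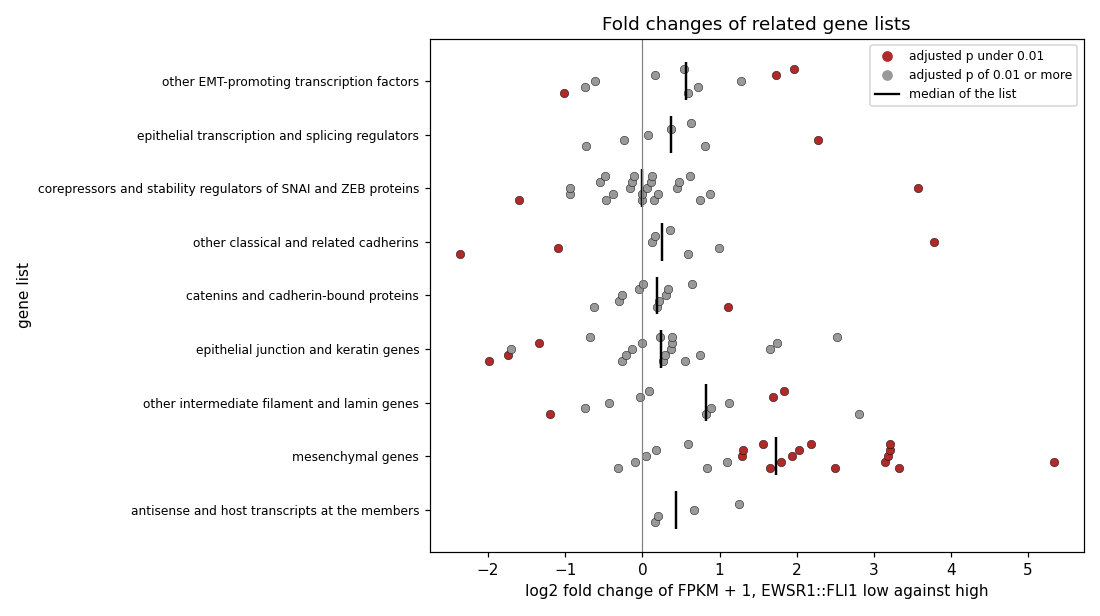
Each point is the log2 fold change of a tested gene of the 9 lists, red where the adjusted p (limma) is under 0.01, and black bars mark the medians. In the mesenchymal list 15 of 22 points are red and lie above 0, whereas 3 of 20 epithelial junction and keratin genes are red and lie below 0.

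The genes of all tested whose log2(FPKM + 1) values followed CDH2, SNAI2 and VIM most closely over the 6 libraries were looked up as a description. As the libraries form 2 groups, these correlations largely restate the group difference. For CDH2 they were FBN1 (fibrillin-1, a protein of elastic microfibrils) and IGFBP7 (an insulin-like growth factor binding protein), with r = 0.999 for each. For SNAI2 they were LOC101929231 (r = 0.998) and BACH2 (r = 0.995), and for VIM FBLIM1 (r = 0.999) and ARHGAP10 (r = 0.998). EWSR1::FLI1low replicate 1, which held the highest SNAI2 and TWIST1 values of the 6 libraries, held the lowest CDH2 and VIM values of the treated group, so SNAI2 and CDH2 did not rank the treated libraries alike.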

How the data were processed

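RNAseq of A673/TR/shEF cells comprised 3 EWSR1::FLI1high and 3 EWSR1::FLI1low libraries, prepared from rRNA-depleted total RNA with a ScriptSeq v2 kit. Samples were grouped by their titles. The authors aligned reads to GRCh37 with STAR (2.5.0b, per the submitters' processing notes), named Cufflinks (2.2.1) for abundance, and deposited FPKM values per gene and library. The authors also deposited a DESeq2 (1.6.3) table. The authors made its mean signal per gene (mean normalized count) by scaling reads to library size, and only that column was used, not the fold changes and p-values. Scaled by that mean, 100% of FPKM values above 0 were whole multiples (within 0.1) of 1 read, which gave reads per gene. As the values are FPKM, recovered reads were tested only as an alternative. Intervals of reads cover counting error only.

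Genes with a mean of at least 0.5 FPKM were tested with limma (3.58.1, R 4.3.3, eBayes with trend) on log2(FPKM + 1). The fit was tested on simulated data, where 69.5% of 200 genes altered by 2 on the log2 scale were recovered and 2 of 15304 unchanged genes were called. The simulation gave both groups the same spread per gene and altered only genes with a mean log2(FPKM + 1) over 2. It did not cover the wider spread of the treated group, nor recovery of genes as low as SNAI1, TWIST2 and CDH1. Ratios of paralogs were compared with an exact permutation test (scipy 1.17.1, Python 3.11.15). Pairs of replicates differed by more than sampling noise (chi-square per degree of freedom 4.25 to 6.27 and 20.2 to 31.5 in the untreated and treated groups). The genes and lists were chosen with earlier results of these data known. Genes named by rule are the 10 EMT genes, FLI1 and the 3 largest called increases and decreases of each list (or its lowest adjusted p). The rule also names the 2 genes most correlated with each of the 3 EMT genes of lowest adjusted p. Genes outside this rule are marked in the text as named after their values were seen. A gene of the mesenchymal list that this rule names is not reported here. Alternatives were a pseudocount of 0.1, no filter, a mean of at least 1 FPKM, median-ratio scaling, quantile normalization, no trend, a replicate block, array weights, limma-voom on recovered reads and leaving out each library. Gene positions come from the lifted v44 release of GENCODE (GRCh37). Sequences are from RefSeq (GRCh38.p14).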

Additional observations from a re-analysis of the deposited data

How the results depend on the processing

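SNAI2 and CDH2 were called under all 15 alternatives, with log2 fold changes from 1.99 to 2.56 and from 2.45 to 2.69. VIM kept its direction and was called in 8 of 15. The EMT genes called numbered 5 with array weights, which added SNAI1 (adjusted p = 0.00202) and ZEB1 (0.00861, limma), and 2 to 3 when 1 library was left out. TWIST1 was -0.91 with array weights (adjusted p = 0.0118, limma), ranged from -0.61 to 0.18 without 1 library and changed sign without EWSR1::FLI1low replicate 2, and CDH11 with median-ratio scaling (0.0227), quantile normalization (0.14) and array weights (0.0571). SNAI1 and TWIST2 could not be fitted at a mean of at least 1 FPKM, nor TWIST2 without EWSR1::FLI1low replicate 1. Over all genes tested, 1222 were called, against 753 without a filter, 1992 with quantile normalization, 4745 with array weights and 475 to 2334 without 1 library. Higher genes were 57.3% of the calls, against 37.6% without EWSR1::FLI1low replicate 3 and 64.8% to 67.2% without any other library. Past both limits were 158 genes, against 341 with a pseudocount of 0.1, 269 with array weights, 377 with limma-voom and 123 to 230 without 1 library. List genes called numbered 31, against 63 with array weights and 18 to 48 without 1 library. The paralog ratios kept their signs with a pseudocount of 0.1 and without any 1 library. The cause of these differences was not tested. Whether equal replicate numbers pair the samples was not settled, and the main fit was unpaired. Deviations of same-numbered libraries correlated with r from 0.09 to 0.27, and other pairs with r from -0.29 to 0.19. Of the 6 libraries, 4 correlated best with their own number. With the replicate block 1702 genes, 40 list genes and the same 3 EMT genes were called (VIM adjusted p = 0.0016, limma). Depth limits SNAI1, TWIST2 and CDH1, with 3 to 39 reads per library.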
